A study of Homo sapiens with 15 samples.

Results

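The 55 genes described here are homeobox regulators that lie outside the HOX clusters. They were taken as a list of symbols, and each matched 1 Ensembl identifier among the 57820 genes of the count table. By homeodomain class they comprise 24 genes of the ANTP class (the *DLX*, *MSX*, *NKX*, *BARX* and related genes), 9 of the PRD class (*PAX*, *OTX*, *ALX* and *PRRX* genes), 10 of the TALE class (*IRX*, *MEIS* and *PBX* genes), 5 LIM genes, 3 POU genes, 2 of the SINE class (*SIX2* and *SIX4*) and 2 CUT genes. The list was not chosen by a cut on these counts, but it was drawn up with earlier results of these data known.

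RNA was sequenced from A673 cells, a single Ewing sarcoma line that carries the EWS/FLI fusion, in 15 libraries with 3 per condition, to ask how much of the EWS/FLI program each rescue construct restores. In all conditions cells received an shRNA on day 1 and a vector on day 5, and selection with hygromycin B at 400 μg/mL and puromycin at 2 μg/mL ran until day 16. iLuc cells carried an shRNA against luciferase and an empty vector and so kept endogenous EWS/FLI (endo-EF). iEF cells carried an shRNA against the untranslated end of the EWS/FLI transcript and an empty vector. The 3 rescue conditions combined that shRNA with a FLAG-tagged cDNA: WT-EF, the intact fusion; delta22 (Δ22), which lacks nearly all of the EWS domain; or DAF, in which tyrosines of the N-terminal repeats of the EWS domain are changed to alanine while a later tyrosine-containing stretch is left intact. The labels number the replicates without saying how they were made, and the study describes independent knockdown and rescue experiments, so the p-values measure the spread between such experiments in 1 cell line.

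Total counts ranged from 28659475 to 41859880 per library (median 32943231), and levels are given as CPM, the read count relative to the TMM-scaled total of its library. *FLI1*, which provides the DNA-binding end of the fusion, had 47.99, 47.8 and 52.4 CPM in the iLuc libraries, replicates 1 to 3 in order as in all lists of values below, and 12.9, 15.5 and 15.3 CPM in iEF. It had 16.03, 18.02 and 18.7 CPM in WT-EF, 24.4, 32.9 and 36.2 in Δ22 and 22.1, 23.6 and 27.3 in DAF. The iLuc libraries thus lay above all others, and WT-EF lay below Δ22 and DAF. Whether the cDNAs carry the untranslated end that the shRNA targets is not stated in the sources used here. CPM of *FLI1* from the endogenous transcript and from a cDNA may therefore not compare as amounts of transcript. The change from iEF was 1.77 (SE 0.10, adjusted p = 7.93e-09) for iLuc, 0.27 (SE 0.10, adjusted p = 0.0538) for WT-EF, 1.09 (SE 0.10, adjusted p = 0.000446) for Δ22 and 0.74 (SE 0.10, adjusted p = 0.000335) for DAF on the log2 scale. *FLI1* was lower in WT-EF than in DAF (log2 fold change -0.47, SE 0.10, adjusted p = 0.00264), and the part of this gap in the differences between WT-EF and DAF below was not tested. The Δ22 call was lost without replicate 2 of every condition (adjusted p = 0.134). Of 7 Ewing sarcoma markers, *NR0B1*, *STEAP1*, *PRKCB*, *LIPI* and *BCL11B* were higher in iLuc than in iEF, *CCND1* was high in both (1688, 1742 and 1808 CPM and 2151, 1575 and 1705 CPM) and *CD99* had at most 0.0782 CPM in any library. A count this near 0 is doubtful as a measure of *CD99* expression in a Ewing sarcoma line, and its cause was not tested. Markers of epithelial, endothelial and blood cells, 6 of 7 of which were matched, summed to between 0.4396 and 1.99 CPM per library. In bulk RNA, fewer cells that express a gene and less RNA per cell cannot be told apart.

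Homeobox genes encode transcription factors that bind DNA through a homeodomain of helical fold. They are known for assigning position and cell identity in the embryo, in the neural tube, neural crest, limb and face among other places, and TALE proteins act as DNA-binding partners of many of them. EWS/FLI binds GGAA motifs through the ETS domain of FLI, and runs of consecutive GGAA repeats (GGAA microsatellites) are known as sites from which it activates genes. *NKX2-2*, a regulator of ventral neural tube identity, is an established target and a diagnostic marker of Ewing sarcoma.

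Of the 55 genes, 48 averaged at least 1 count per library and were tested, among 28793 genes, with edgeR's quasi-likelihood test and Benjamini-Hochberg adjustment over all of them. All adjusted p-values below are from that test, called at 0.05, and each fold change is a difference of fitted log2 levels. In iLuc against iEF cells 22 of the 48 were higher and 14 were lower, where 19.5% of all genes tested were higher and 22.1% were lower. WT-EF raised 19 and lowered 15 relative to iEF, against 12.9% and 17.0% of all genes. Δ22 raised none and lowered 2, *DLX1* and *IRX3*, where all genes gave 0.472% higher and 0.83% lower. At an unadjusted p under 0.05, 6 members were higher and 8 lower in Δ22, and DESeq2's Wald test called 2 higher. The shares of all genes at these 2 settings are not given here, so these counts are no result about the members. DAF raised 9 and lowered 10, against 5.0% and 6.19%. The 4 comparisons share the iEF libraries, so their values are given side by side and are not independent of each other.

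The median log2 fold change over the 48 genes was 0.06 in iLuc and 0.07 in WT-EF, beside 0.04 and -0.01 over all genes tested, with members moving in both directions. In Δ22 it was -0.17 (all genes 0.01) and in DAF -0.07 (all genes 0.0004). Called under all 25 alternative analyses were 29 members in iLuc, 24 in WT-EF, none in Δ22 and 7 in DAF. The count lowered by DAF fell to 6 without iEF replicate 2, to 5 without DAF replicate 2 and to 2 without replicate 2 of every condition. By class, ANTP genes rose and fell (10 and 6 of 21 tested in iLuc against iEF), all 3 POU genes were higher, *SIX2* and *SIX4* were lower, and 4 of 7 TALE genes tested were lower with *MEIS1* alone higher.

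**Figure D1:**
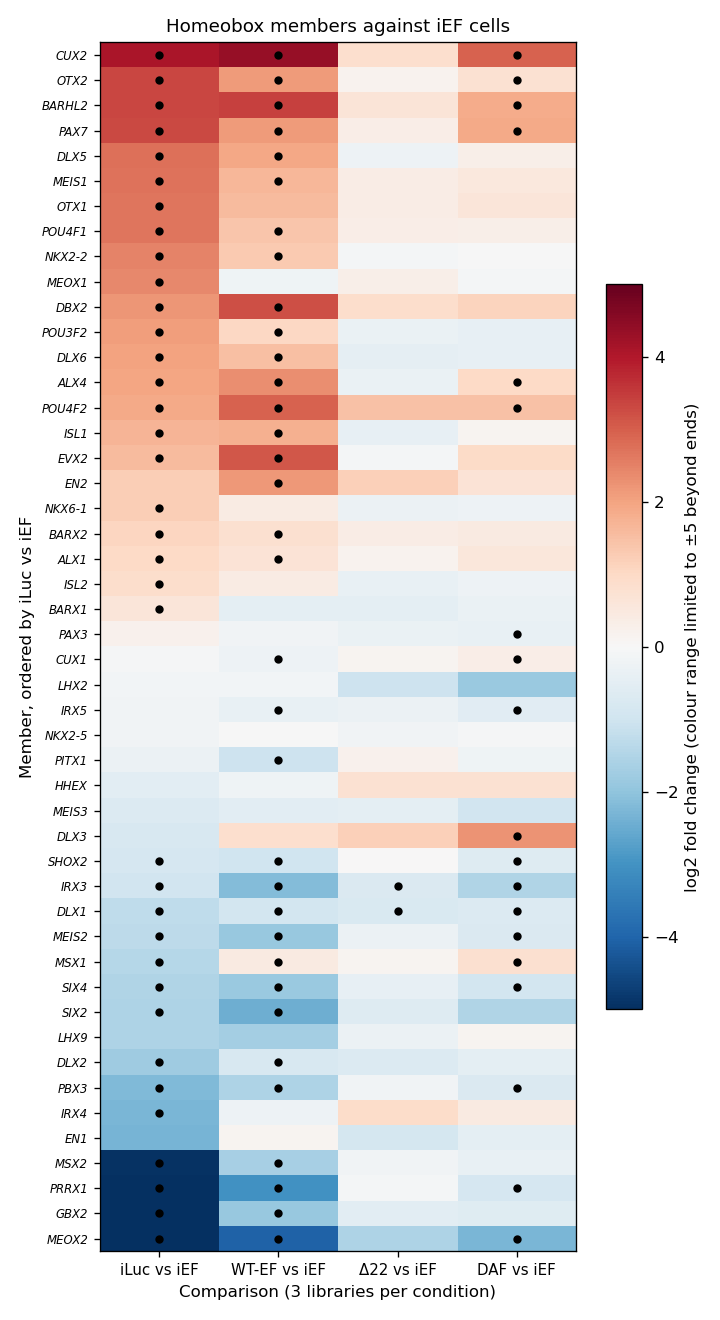
Log2 fold change of the 48 tested members (rows, ordered by iLuc against iEF) in iLuc, WT-EF, Δ22 and DAF, each against iEF (columns, 3 libraries per condition). Red is higher and blue lower than iEF, and a black dot marks an adjusted p under 0.05. Dots fill both ends of the iLuc and WT-EF columns, with 22 members higher and 14 lower in iLuc and 19 and 15 in WT-EF, and leave the Δ22 column with 2.

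Runs of consecutive GGAA repeats near the members are shown because EWS/FLI is known to bind them, though its binding was not measured in these libraries. Runs of at least 4 repeats of GGAA, on either strand (TTCC on the other), were located in GRCh37, the build named hg19 by the authors, and measured from the annotated gene start of GENCODE. Of the 22 members higher in iLuc than in iEF, 11 (50.0%) had a run of 8 or more repeats within 100 kb, as had 2 of the 14 lower (14.3%) and 5 of the 12 not called (41.7%). The share was 36.4% of the 55 members and 22.4% of 20162 protein-coding genes. Within 5 kb, runs of at least 4 repeats lay near 2 of the 22 (*ALX4* and *PAX7*) and none of the 14, with 3.65% of all protein-coding genes. These are descriptions of the reference genome, whose repeat lengths may differ from those of A673 cells, and no test was made.

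The longest runs within 100 kb are printed for 8 of the 11 higher members with 8 or more repeats, those whose values in every library are given below, and not for *OTX1*, *ALX1* and *BARX1*, whose runs have 16, 12 and 9 repeats. They are followed by those of *MSX2*, which was lower, and of *NKX2-5*, which was not called, as examples that a long run also lies near members that did not rise. Each is written 5′ to 3′ on the strand that reads GGAA, with the repeats in capitals and 20 flanking bases on each side in lower case.
NKX2-2: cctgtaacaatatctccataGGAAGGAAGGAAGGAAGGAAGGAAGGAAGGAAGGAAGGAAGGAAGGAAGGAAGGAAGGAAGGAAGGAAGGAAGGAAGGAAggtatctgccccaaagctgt
PAX7: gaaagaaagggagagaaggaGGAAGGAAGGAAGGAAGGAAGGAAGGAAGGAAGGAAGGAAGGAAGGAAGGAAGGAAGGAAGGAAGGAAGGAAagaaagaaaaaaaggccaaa
ALX4: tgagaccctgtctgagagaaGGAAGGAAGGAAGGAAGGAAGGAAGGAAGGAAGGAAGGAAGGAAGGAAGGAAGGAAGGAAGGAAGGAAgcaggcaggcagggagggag
CUX2: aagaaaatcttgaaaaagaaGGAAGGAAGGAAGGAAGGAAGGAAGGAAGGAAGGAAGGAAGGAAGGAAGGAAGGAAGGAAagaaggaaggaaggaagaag
ISL1: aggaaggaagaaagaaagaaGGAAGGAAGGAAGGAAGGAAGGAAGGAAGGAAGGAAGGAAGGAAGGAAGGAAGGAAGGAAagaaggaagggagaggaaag
BARHL2: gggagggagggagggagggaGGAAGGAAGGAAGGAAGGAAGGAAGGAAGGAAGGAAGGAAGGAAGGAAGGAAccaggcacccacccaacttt
POU4F1: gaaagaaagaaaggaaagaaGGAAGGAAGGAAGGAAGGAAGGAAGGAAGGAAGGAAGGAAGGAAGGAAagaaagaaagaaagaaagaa
OTX2: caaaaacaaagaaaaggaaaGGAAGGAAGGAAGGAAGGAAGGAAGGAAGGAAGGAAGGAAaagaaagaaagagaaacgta
MSX2: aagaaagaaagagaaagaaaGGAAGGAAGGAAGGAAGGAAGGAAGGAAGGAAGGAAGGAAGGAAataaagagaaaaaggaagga
NKX2-5: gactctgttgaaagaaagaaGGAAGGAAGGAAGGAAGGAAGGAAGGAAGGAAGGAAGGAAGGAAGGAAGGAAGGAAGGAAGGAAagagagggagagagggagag

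The run of *NKX2-2* has 20 repeats, 62220 bp upstream of the start and in an intron of *LINC01727* (chr20:21556902-21557021, GGAA on the minus strand). The run of *PAX7* has 18 repeats, 19502 bp upstream of the start and in no annotated gene (chr1:18937747-18937858, GGAA on the plus strand). The run of *ALX4* has 17 repeats, 16969 bp downstream of the start and in an intron of the gene itself (chr11:44314633-44314740, GGAA on the plus strand). The run of *CUX2* has 15 repeats, 36229 bp downstream of the start and in an intron of the gene itself (chr12:111508178-111508277, GGAA on the minus strand). The run of *ISL1* has 15 repeats, 32594 bp downstream of the start and in no annotated gene (chr5:50711856-50711955, GGAA on the minus strand). The run of *BARHL2* has 13 repeats, 7921 bp downstream of the start and in no annotated gene (chr1:91174867-91174958, GGAA on the plus strand). The run of *POU4F1* has 12 repeats, 16313 bp downstream of the start and in an intron of *OBI1-AS1* (chr13:79161307-79161394, GGAA on the plus strand). The run of *OTX2* has 10 repeats, 9548 bp upstream of the start and in an intron of *OTX2-AS1* (chr14:57292939-57293018, GGAA on the plus strand). The run of *MSX2* has 11 repeats, 44574 bp downstream of the start and in an intron of an unnamed lncRNA (chr5:174196139-174196222, GGAA on the plus strand). The run of *NKX2-5* has 16 repeats, 36263 bp downstream of the start and in no annotated gene (chr5:172625968-172626071, GGAA on the minus strand). The distances ran from 7921 bp for *BARHL2* to 62220 bp for *NKX2-2*, and none of the 10 printed runs touched an annotated exon. The longer ETS motif CCGGAAGT (ACTTCCGG on the other strand) was found in 2 of 50 RefSeq promoter sequences of members (GRCh38; *MEIS1* and *MEIS3*, 4.0%) and in 4.14% of all 35116 promoters.

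**Figure D2:**
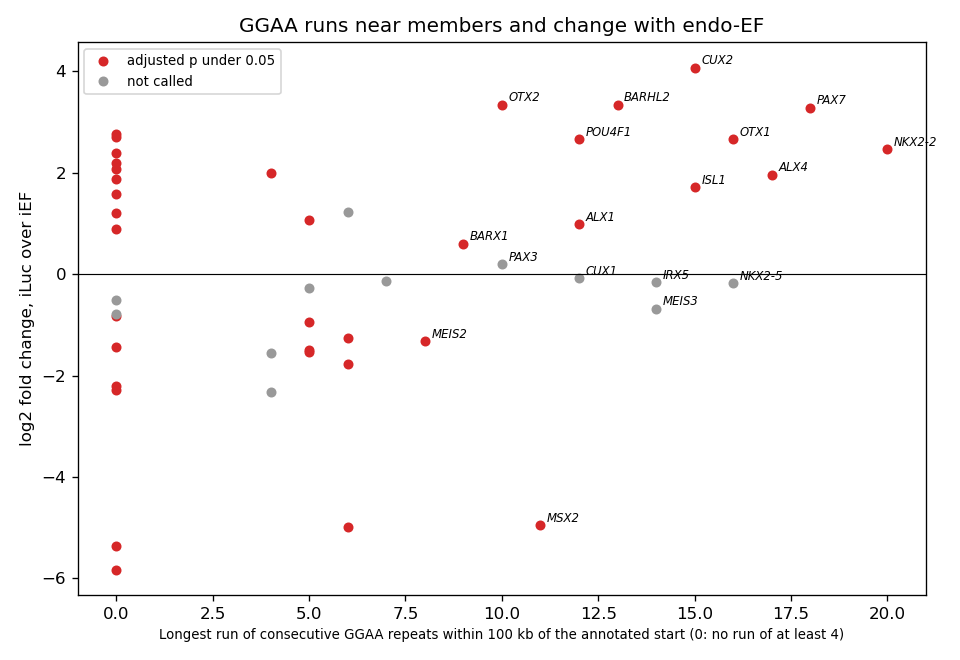
Longest run of consecutive GGAA repeats within 100 kb of each tested member's annotated start in GRCh37 (x axis, repeats; 0 where no run of at least 4 lies there) against its log2 fold change in iLuc over iEF (y axis, each from 3 against 3 libraries). Red points had an adjusted p under 0.05. Of the members with 8 or more repeats, 11 lie above 0 and were called, 2 were called below 0, and 5 were not called.

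Among the ANTP class, *BARHL2*, a BarH-like regulator of neuronal subtype identity, had 15.3, 16.7 and 15.8 CPM in iLuc and 1.63, 2.19 and 0.931 CPM in iEF. It had 13.2, 15.9 and 21.8 CPM in WT-EF, 1.905, 3.103 and 2.57 in Δ22 and 4.29, 6.73 and 6.57 in DAF. The WT-EF libraries overlapped the iLuc libraries, DAF lay between these and iEF without overlap, and Δ22 overlapped iEF. The fold over iEF was 10.1-fold in iLuc (log2 fold change 3.34, SE 0.25, adjusted p = 9.28e-08), 10.7-fold in WT-EF (adjusted p = 3.17e-07) and 3.67-fold in DAF (adjusted p = 0.000299).

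The genes *DLX5* and *DLX6*, which lie side by side and act in the face, limb and bone, were both higher with endo-EF. *DLX5* had 24.3, 19.3 and 26.7 CPM in iLuc, 3.05, 4.08 and 3.23 in iEF and 9.997, 10.3 and 20.6 in WT-EF. In Δ22 it had 2.05, 3.57 and 3.07 CPM and in DAF 3.27, 4.72 and 4.96 CPM. WT-EF and iLuc lay above every library of iEF, Δ22 and DAF, with WT-EF replicate 3 inside the iLuc range. Relative to iEF, the log2 fold change of *DLX5* was 2.77 (SE 0.24, adjusted p = 3.49e-07) in iLuc, 1.93 (SE 0.24, adjusted p = 2.24e-05) in WT-EF and 0.31 (SE 0.24, adjusted p = 0.509) in DAF. *DLX6* had 5.32, 4.15 and 5.19 CPM in iLuc, 0.893, 1.35 and 1.51 in iEF and 2.49, 2.56 and 5.75 in WT-EF. It had 0.703, 0.886 and 1.11 CPM in Δ22 and 1.02, 1.002 and 0.671 in DAF, which overlapped iEF. Its log2 fold change was 1.99 (SE 0.29, adjusted p = 6.01e-05) in iLuc and 1.49 (SE 0.29, adjusted p = 0.00128) in WT-EF. The antisense gene *DLX6-AS1* overlaps *DLX6* and held 1271 counts over the 15 libraries beside 1201 for *DLX6*. The strand setting of the counting is not given in the sources used here, so how far the reads of such a pair were told apart is not known. *DLX6-AS1* had 3.58, 2.92 and 4.27 CPM in iLuc and 2.18, 1.92 and 2.04 in iEF.

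*NKX2-2* and *NKX6-1*, which act in the ventral neural tube, were higher in iLuc than in iEF. *NKX2-2* had 4.31, 5.89 and 5.49 CPM in iLuc and 0.946, 1.01 and 0.873 in iEF. It had 2.22, 2.14 and 2.69 CPM in WT-EF, 1.05, 0.991 and 0.572 in Δ22 and 0.738, 1.27 and 0.771 in DAF. WT-EF stood between iLuc and iEF without touching either, and Δ22 and DAF overlapped iEF. Its log2 fold change was 2.46 (SE 0.25, adjusted p = 1.56e-06) in iLuc, 1.32 (SE 0.25, adjusted p = 0.000958) in WT-EF and -0.03 (SE 0.27, adjusted p = 0.972) in DAF. *NKX6-1*, a partner of *NKX2-2* in ventral patterning, had 6.79, 9.03 and 7.34 CPM in iLuc and 2.97, 2.93 and 3.98 CPM in iEF. The WT-EF libraries held 2.46, 5.47 and 5.64 CPM, those of Δ22 2.87, 3.21 and 1.86 and those of DAF 2.07, 3.403 and 3.02. The iLuc libraries lay above all others, and WT-EF overlapped iEF. Its log2 fold change was 1.21 (SE 0.26, adjusted p = 0.00132) in iLuc, a call lost without replicate 2 of every condition (adjusted p = 0.05), and 0.41 (SE 0.26, adjusted p = 0.275) in WT-EF.

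*DBX2*, which patterns spinal interneuron progenitors, had 0.5502, 1.23 and 0.567 CPM in iLuc and 0.105, 0.135 and 0.233 in iEF. It reached 1.14, 1.93 and 1.46 CPM in WT-EF, with 0.205, 0.574 and 0.143 in Δ22 and 0.211, 0.633 and 0.268 in DAF. WT-EF lay above iEF, Δ22 and DAF in every library. On the log2 scale, the change from iEF was 2.20 (SE 0.41, adjusted p = 0.000456) in iLuc and 3.20 (SE 0.38, adjusted p = 1.82e-05) in WT-EF. *EVX2*, the even-skipped gene beside the HOXD cluster, had 1.38, 0.926 and 0.776 CPM in iLuc and 0.289, 0.573 and 0.175 in iEF. WT-EF libraries held 3.07, 2.43 and 3.22 CPM, above every other library. Δ22 held 0.234, 0.495 and 0.179 CPM and DAF 0.914, 0.448 and 0.637 CPM, both overlapping iEF. Against iEF, the log2 fold change of *EVX2* was 1.59 (SE 0.42, adjusted p = 0.00685) in iLuc and 3.12 (SE 0.40, adjusted p = 3.35e-05) in WT-EF. The iLuc call was lost without iEF replicate 1 (adjusted p = 0.0504), or without replicate 1 of every condition (adjusted p = 0.127). *EVX2* was higher in WT-EF than in iLuc (log2 fold change 1.54, SE 0.35, adjusted p = 0.006397), a call lost without replicate 1 of every condition (adjusted p = 0.0525).

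*BARX2*, a BarH-like gene of craniofacial and muscle development, had 22.6, 14.5 and 27.9 CPM in iLuc and 14.1, 9.91 and 7.21 in iEF. Its values were 19.1, 16.9 and 18.3 CPM in WT-EF, 16.4, 12.2 and 11.97 in Δ22 and 16.3, 11.7 and 14.3 in DAF. iLuc and WT-EF lay above iEF by a small margin, and Δ22 and DAF overlapped it. The change from iEF on the log2 scale was 1.06 (SE 0.20, adjusted p = 0.000569) in iLuc and 0.82 (SE 0.20, adjusted p = 0.00603) in WT-EF. *MEOX1*, a somite gene, had 1.498, 2.08 and 1.67 CPM in iLuc and 0.105, 0.607 and 0.436 in iEF. WT-EF held 0.111, 0.317 and 0.559 CPM, Δ22 0.264, 0.235 and 0.965 and DAF 0.0703, 0.2902 and 0.771. The iLuc libraries stood apart, and the other 4 conditions overlapped each other. *MEOX1* was higher in iLuc than in iEF (log2 fold change 2.39, SE 0.50, adjusted p = 0.00121) and lower in WT-EF than in iLuc (log2 fold change -2.61, SE 0.50, adjusted p = 0.00206).

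**Figure D3:**
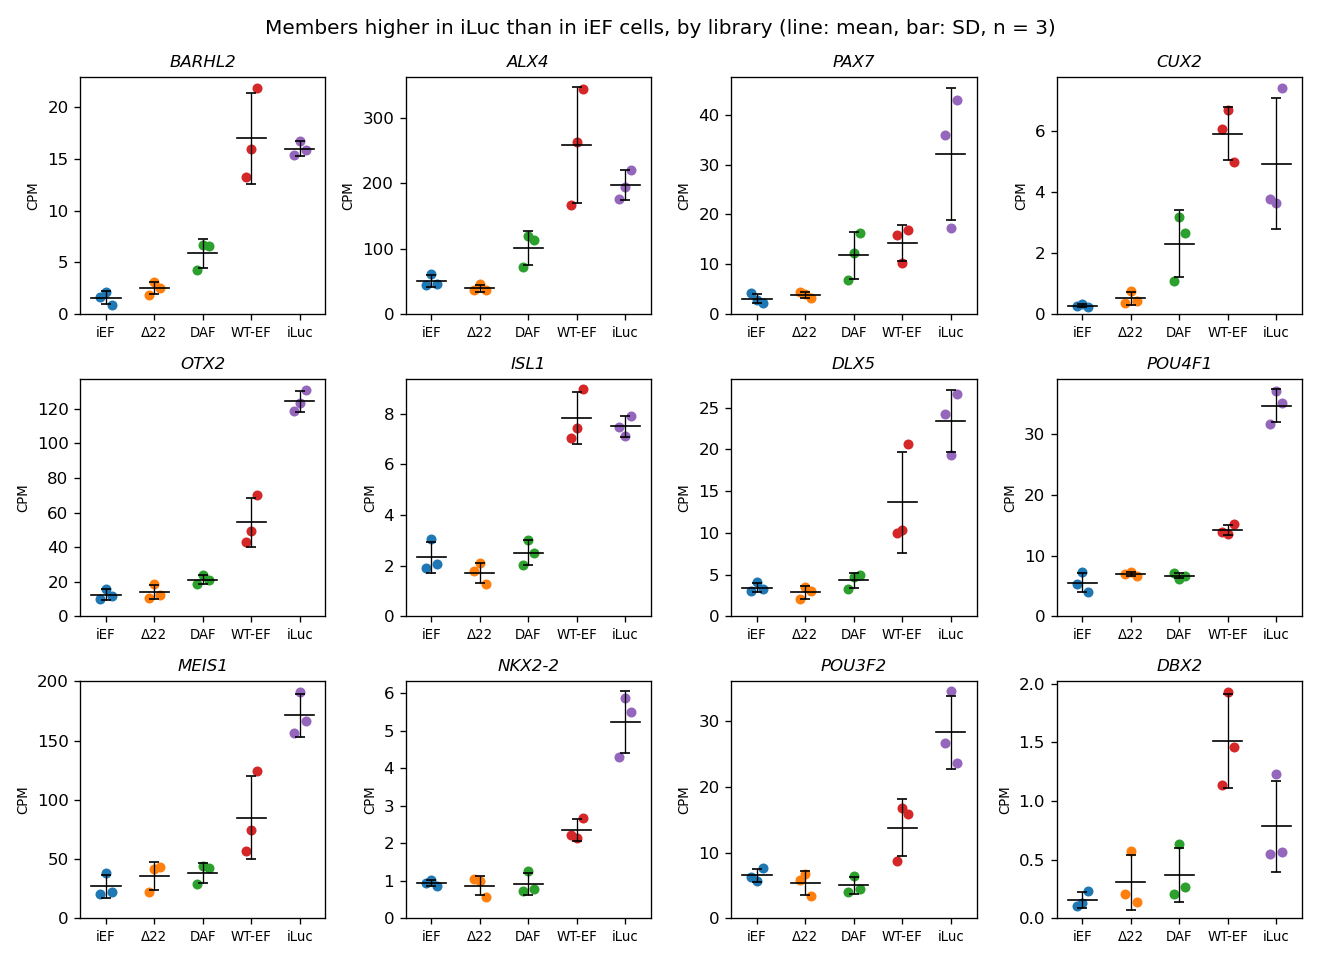
CPM in each library (points) for 12 members higher in iLuc than in iEF, by condition (x axis), with the mean (line) and SD (bar) of 3 libraries, each y axis starting at 0. For BARHL2, ALX4, ISL1 and DBX2 the WT-EF libraries reach the iLuc level or pass it, for OTX2, POU4F1, MEIS1 and NKX2-2 they stay below it, and DAF libraries rise clear of iEF for BARHL2, ALX4, PAX7, CUX2 and OTX2.

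Other ANTP genes were lower with endo-EF. *MSX2*, a repressor active in neural crest and skull, had 0.336, 0.112 and 0.209 CPM in iLuc and 8.01, 5.598 and 6.46 in iEF. It had 2.19, 4.17 and 0.639 CPM in WT-EF, 5.83, 6.13 and 5.75 in Δ22 and 4.81, 6.73 and 4.29 in DAF. WT-EF libraries were spread widely and lay between iLuc and iEF, and Δ22 and DAF overlapped iEF. *MSX2* was 31.1-fold lower in iLuc than in iEF (log2 fold change -4.96, SE 0.52, adjusted p = 2.04e-06) and 3.14-fold lower in WT-EF (log2 fold change -1.65, SE 0.39, adjusted p = 0.00511). The WT-EF call was lost without replicate 1 of every condition (adjusted p = 0.0809). WT-EF stayed above iLuc (log2 fold change 3.31, SE 0.53, adjusted p = 0.0005998). *GBX2*, which positions the boundary of midbrain and hindbrain, had 3 counts in the iLuc libraries together and 136 in iEF, a ratio of 45.2 (95% counting interval 15.2 to 222, counting error only). Its levels were 0.0306, 0.0561 and 0 CPM in iLuc and 0.946, 1.89 and 1.28 in iEF. WT-EF held 0.388, 0.528 and 0.186 CPM, Δ22 0.762, 1.04 and 1.0005 and DAF 0.773, 0.897 and 0.972. WT-EF lay above iLuc and below iEF in every library. *GBX2* was lower than iEF in iLuc (adjusted p = 9.92e-07) and in WT-EF (log2 fold change -1.88, SE 0.34, adjusted p = 0.000689), and higher in WT-EF than in iLuc (adjusted p = 0.00102).

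The *DLX1* and *DLX2* pair, known for forebrain interneurons, was lower with endo-EF, opposite in direction to *DLX5* and *DLX6*. *DLX1* had 14.1, 14.7 and 13.5 CPM in iLuc and 33.4, 30.9 and 36.4 in iEF. It had 17.9, 19.1 and 16.2 CPM in WT-EF, 25.5, 19.1 and 16.04 in Δ22 and 23.2, 21.5 and 19.1 in DAF. All 12 libraries of the other conditions lay below the lowest iEF library. In log2 terms the difference from iEF was -1.26 (SE 0.13, adjusted p = 2.62e-06) in iLuc, -0.93 (SE 0.13, adjusted p = 8.75e-05) in WT-EF, -0.75 (SE 0.13, adjusted p = 0.0132) in Δ22 and -0.67 (SE 0.13, adjusted p = 0.00457) in DAF. The Δ22 call was lost without iEF replicate 3 (adjusted p = 0.0672), Δ22 replicate 2 (adjusted p = 0.11) or Δ22 replicate 3 (adjusted p = 0.0838), or without replicate 2 or 3 of every condition (adjusted p = 0.29 and 0.0627). The DAF call was lost without replicate 2 of every condition (adjusted p = 0.0604). *DLX2* had 9.38, 8.02 and 13.2 CPM in iLuc and 40.8, 20.9 and 44.8 in iEF. WT-EF held 26.8, 19.1 and 16.003 CPM, Δ22 28.98, 22.9 and 14.04 and DAF 28.1, 28.1 and 18.9. The iLuc libraries lay below all others, while the rescue conditions overlapped iEF, whose replicate 2 was low. *DLX2* was lower in iLuc (log2 fold change -1.77, SE 0.29, adjusted p = 0.0001605). In WT-EF its log2 fold change was -0.79 (SE 0.28, adjusted p = 0.0475), a call lost without 1 library at a time of iLuc replicates 1 and 2, iEF replicates 1 and 3, any WT-EF replicate, Δ22 replicates 1 and 2 and any DAF replicate (adjusted p from 0.0501 to 0.28), or without replicate 1 or 3 of every condition (adjusted p = 0.131 and 0.162), and under 3 other settings (adjusted p from 0.0504 to 0.0674).

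*MSX1*, a relative of *MSX2* with roles in tooth and palate, was lower in iLuc and higher in WT-EF and DAF than in iEF. It had 3.55, 2.41 and 2.99 CPM in iLuc and 8.72, 7.01 and 8.52 in iEF. The rescue conditions held 12.5, 10.3 and 10.3 CPM for WT-EF, 8.85, 8.08 and 9.47 for Δ22 and 13.95, 12.5 and 15.8 for DAF. iLuc was below every other library, and the WT-EF and DAF libraries were above every iEF library. Relative to iEF the log2 fold change was -1.44 (SE 0.14, adjusted p = 7.15e-07) in iLuc, 0.45 (SE 0.13, adjusted p = 0.0138) in WT-EF and 0.80 (SE 0.13, adjusted p = 0.00104) in DAF. The WT-EF call was lost without WT-EF replicate 2 (adjusted p = 0.0568), or without replicate 1 or 2 of every condition (adjusted p = 0.129 and 0.154), and in a fit of only the 6 libraries compared (adjusted p = 0.0661). WT-EF exceeded iLuc by 1.90 on the log2 scale (SE 0.14, adjusted p = 9.17e-07).

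In the PRD class, *OTX2*, a regulator of forebrain and retina, had 119, 123 and 131 CPM in iLuc and 9.91, 16.1 and 11.5 in iEF. It had 43.1, 49.7 and 70.2 CPM in WT-EF, 10.8, 18.9 and 12.5 in Δ22 and 18.5, 23.6 and 21.2 in DAF. The order was iLuc, WT-EF, DAF and iEF, with no overlap between these 4, and Δ22 overlapped both DAF and iEF. *OTX2* was 10.1-fold higher than iEF in iLuc (log2 fold change 3.34, SE 0.18, adjusted p = 4.11e-09), 4.39-fold in WT-EF (adjusted p = 5.91e-07) and 1.71-fold in DAF (adjusted p = 0.00865). In DAF the call was lost without replicate 1 of every condition (adjusted p = 0.115). Per kb of exon *OTX2* had the highest mean level of all members in iLuc, at 36.6 CPM per kb, followed by *ALX4* at 34.5.

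*ALX4*, a gene of skull and limb mesenchyme, had 176, 195 and 221 CPM in iLuc and 44.5, 61.8 and 45.9 in iEF. Its values were 168, 263 and 344 CPM in WT-EF, 37.2, 46.4 and 36.7 in Δ22 and 71.7, 119.9 and 114 in DAF. DAF lay between iEF and WT-EF without overlap, and WT-EF overlapped iLuc. Relative to iEF, the log2 fold change was 1.96 (SE 0.17, adjusted p = 3.48e-07) in iLuc, 2.32 (SE 0.17, adjusted p = 3.22e-07) in WT-EF, 0.98 (SE 0.17, adjusted p = 0.00176) in DAF and -0.33 (SE 0.17, adjusted p = 0.415) in Δ22. *PAX7*, known from neural crest and muscle stem cells, had 35.9, 17.3 and 42.98 CPM in iLuc and 4.23, 2.93 and 2.33 in iEF. It had 15.8, 10.3 and 16.9 CPM in WT-EF, 4.45, 4.04 and 3.22 in Δ22 and 6.89, 12.3 and 16.2 in DAF. DAF libraries overlapped those of WT-EF, and both lay above every iEF library. *PAX7* was 9.73-fold higher in iLuc (log2 fold change 3.28, SE 0.35, adjusted p = 2.4e-06), 4.43-fold in WT-EF (adjusted p = 0.000202) and 3.73-fold in DAF (adjusted p = 0.00243).

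*PRRX1*, a marker of limb and facial mesenchyme, showed the opposite pattern at a high level. It had 10.4, 3.98 and 7.88 CPM in iLuc and 241, 234 and 189 in iEF. It had 35.3, 23.6 and 23.9 CPM in WT-EF, 227, 159 and 249.9 in Δ22 and 166, 89.9 and 130.2 in DAF. iLuc, WT-EF, DAF and iEF followed each other from low to high with no overlap, and Δ22 spanned the iEF range. *PRRX1* was 31.7-fold lower than iEF in iLuc (log2 fold change -4.99, SE 0.23, adjusted p = 1.48e-09) and 8.25-fold lower in WT-EF (adjusted p = 1.61e-07). In DAF it was 1.798-fold lower (log2 fold change -0.85, SE 0.19, adjusted p = 0.0108), a call lost without iEF replicate 2 (adjusted p = 0.0678) or DAF replicate 2 (adjusted p = 0.085), or without replicate 1 or 2 of every condition (adjusted p = 0.0509 and 0.0893), and with no replicate block (adjusted p = 0.0999). WT-EF remained above iLuc (log2 fold change 1.94, SE 0.21, adjusted p = 2.78e-05). In iEF *PRRX1* had the highest mean level per kb among the members, at 26.9 CPM per kb.

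*SHOX2*, a gene of the limb and the cardiac pacemaker, had 5.01, 5.72 and 3.85 CPM in iLuc and 6.91, 11.3 and 7.94 in iEF. WT-EF held 3.46, 4.62 and 4.82 CPM, Δ22 8.00003, 7.82 and 10.04 and DAF 5.27, 5.28 and 6.002. iLuc, WT-EF and DAF lay below iEF and Δ22 overlapped it. On the log2 scale, the change from iEF was -0.83 (SE 0.19, adjusted p = 0.00287) in iLuc, -1.01 (SE 0.19, adjusted p = 0.00102) in WT-EF and -0.64 (SE 0.19, adjusted p = 0.0443) in DAF. The DAF call was lost without 1 library at a time of iLuc replicates 1 and 2, any iEF replicate, WT-EF replicate 2, Δ22 replicate 1 and any DAF replicate (adjusted p from 0.0536 to 0.234), or without replicate 1 or 2 of every condition (adjusted p = 0.155 and 0.437), and with DESeq2's size factors (adjusted p = 0.0504) and with no replicate block (adjusted p = 0.0645). *SHOX2* overlaps *RSRC1* on the other strand, which held 68610 counts beside 3233 for *SHOX2*, so the values of *SHOX2* are uncertain. How far the 2 genes overlap was not measured. *PITX1*, a hindlimb gene, had 0.856, 0.954 and 1.13 CPM in iLuc and 0.998, 0.877 and 1.72 in iEF, which overlapped. WT-EF held 0.858, 0.396 and 0.506 CPM, Δ22 1.6996, 1.304 and 1.14 and DAF 0.879, 1.24 and 0.872. Its log2 fold change was -1.03 (SE 0.34, adjusted p = 0.0336) in WT-EF and -0.28 (SE 0.33, adjusted p = 0.544) in iLuc. The WT-EF call was lost without iEF replicate 3 (adjusted p = 0.223), WT-EF replicate 2 (adjusted p = 0.136) or WT-EF replicate 3 (adjusted p = 0.139), or without replicate 2 or 3 of every condition (adjusted p = 0.135 and 0.361), and in a fit of only the 6 libraries compared (adjusted p = 0.0749). *PITX1-AS1*, on the other strand, held 422 counts beside 526 for *PITX1*.

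In the TALE class, *MEIS1*, a cofactor of HOX and PBX proteins, had 156, 191 and 167 CPM in iLuc and 20.5, 38.3 and 21.96 in iEF. It had 56.5, 74.3 and 124 CPM in WT-EF, 22.6, 41.2 and 43.4 in Δ22 and 28.96, 44.3 and 42.6 in DAF. WT-EF lay below iLuc and above iEF, and DAF and Δ22 overlapped iEF. Against iEF, the log2 fold change of *MEIS1* was 2.70 (SE 0.22, adjusted p = 1.74e-07) in iLuc, 1.64 (SE 0.21, adjusted p = 3.75e-05) in WT-EF and 0.52 (SE 0.21, adjusted p = 0.1403) in DAF. *MEIS2* went the other way, with 15.6, 16.6 and 12.1 CPM in iLuc and 38.1, 38.9 and 34.3 in iEF. It had 7.53, 8.53 and 14.2 CPM in WT-EF, 33.1, 26.1 and 32.6 in Δ22 and 26.7, 18.3 and 23.004 in DAF. Every iLuc, WT-EF, Δ22 and DAF library was below the lowest iEF library. Its log2 fold change was -1.32 (SE 0.21, adjusted p = 0.000105) in iLuc, -1.89 (SE 0.21, adjusted p = 1.01e-05) in WT-EF, -0.29 (SE 0.20, adjusted p = 0.6096) in Δ22 and -0.72 (SE 0.20, adjusted p = 0.0338) in DAF. In DAF the call was lost without 1 library at a time of iLuc replicate 1, iEF replicates 1 and 2, Δ22 replicate 2 and DAF replicates 2 and 3 (adjusted p from 0.0501 to 0.195), or without replicate 1 or 2 of every condition (adjusted p = 0.093 and 0.331).

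*PBX3*, which encodes a dimer partner of MEIS and HOX proteins, had 2.26, 3.002 and 1.88 CPM in iLuc and 10.4, 9.78 and 12.3 in iEF. WT-EF held 4.04, 3.96 and 3.14 CPM, Δ22 9.79, 10.6 and 8.68 and DAF 6.57, 6.81 and 6.57. The order from low to high was iLuc, WT-EF, DAF and iEF without overlap, with Δ22 overlapping iEF. The change from iEF on the log2 scale was -2.20 (SE 0.18, adjusted p = 1.51e-07) in iLuc, -1.56 (SE 0.17, adjusted p = 7.25e-06) in WT-EF and -0.71 (SE 0.16, adjusted p = 0.0115) in DAF. The DAF call was lost without iEF replicate 3 (adjusted p = 0.09), DAF replicate 1 (adjusted p = 0.0515) or DAF replicate 2 (adjusted p = 0.0714), or without replicate 1 or 2 of every condition (adjusted p = 0.134 and 0.0651). *IRX3*, an Iroquois regulator of neural and limb patterning, had 19.4, 17.1 and 20.98 CPM in iLuc and 37.5, 34.7 and 38.9 in iEF. It had 9.69, 7.69 and 7.22 CPM in WT-EF, 28.8, 19.7 and 18.9 in Δ22 and 15.3, 11.7 and 12.9 in DAF. WT-EF and DAF were both below every iLuc library, and WT-EF was below every DAF library. In log2 terms the difference of *IRX3* from iEF was -0.95 (SE 0.13, adjusted p = 2.5e-05) in iLuc, -2.19 (SE 0.13, adjusted p = 7.6e-08) in WT-EF, -0.74 (SE 0.13, adjusted p = 0.0115) in Δ22 and -1.49 (SE 0.13, adjusted p = 1.33e-05) in DAF. The Δ22 call was lost without 1 library at a time of iEF replicates 2 and 3 and Δ22 replicates 2 and 3 (adjusted p from 0.0535 to 0.103), or without replicate 2 of every condition (adjusted p = 0.362), and with no replicate block (adjusted p = 0.0633). Between WT-EF and iLuc the difference was -1.23 (SE 0.13, adjusted p = 2.43e-05).

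Among LIM and POU genes, *ISL1*, which specifies motor and sensory neurons, had 7.49, 7.097 and 7.91 CPM in iLuc and 1.89, 3.04 and 2.06 in iEF. It had 7.03, 7.43 and 8.97 CPM in WT-EF, 1.79, 2.09 and 1.29 in Δ22 and 2.04, 3.01 and 2.48 in DAF. WT-EF reached the iLuc range, and DAF and Δ22 overlapped iEF. Relative to iEF, the log2 fold change was 1.71 (SE 0.20, adjusted p = 7.63e-06) in iLuc, 1.77 (SE 0.20, adjusted p = 1.23e-05) in WT-EF and 0.12 (SE 0.21, adjusted p = 0.8099) in DAF. *POU4F1*, a sensory neuron regulator that acts with *ISL1*, had 31.8, 37.1 and 35.2 CPM in iLuc and 5.28, 7.25 and 4.07 in iEF. WT-EF held 13.8, 13.6 and 15.3 CPM, Δ22 6.97, 7.25 and 6.57 and DAF 7.099, 6.23 and 6.71. WT-EF lay between iLuc and iEF, and DAF did not leave the iEF range. On the log2 scale, the change of *POU4F1* from iEF was 2.66 (SE 0.16, adjusted p = 1.42e-08) in iLuc, 1.38 (SE 0.16, adjusted p = 1.34e-05) in WT-EF and 0.29 (SE 0.16, adjusted p = 0.325) in DAF.

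*POU4F2*, its relative known from retinal ganglion cells, had 3.64, 1.15 and 2.21 CPM in iLuc and 0.788, 0.506 and 0.524 in iEF. It had 4.93, 3.59 and 5.62 CPM in WT-EF, 0.996, 1.07 and 3.18 in Δ22 and 1.65, 1.61 and 1.71 in DAF. All libraries of the other 4 conditions lay above iEF, with 1 high library in Δ22. Against iEF, the log2 fold change was 1.89 (SE 0.40, adjusted p = 0.001498) in iLuc, 2.94 (SE 0.40, adjusted p = 5.38e-05) in WT-EF, 1.45 (SE 0.41, adjusted p = 0.105) in Δ22 and 1.48 (SE 0.41, adjusted p = 0.0314) in DAF. In DAF the call was lost without 1 library at a time of any iEF replicate and any DAF replicate (adjusted p from 0.0576 to 0.147), or without replicate 2 of every condition (adjusted p = 0.235), and with no replicate block (adjusted p = 0.0724). *POU3F2*, a neuronal gene also known as *BRN2*, had 26.7, 34.5 and 23.7 CPM in iLuc and 6.31, 5.699 and 7.59 in iEF. WT-EF held 8.78, 16.8 and 15.8 CPM, Δ22 5.86, 6.805 and 3.32 and DAF 4.08, 6.44 and 4.46. WT-EF was intermediate, and Δ22 and DAF overlapped iEF. The change from iEF on the log2 scale was 2.08 (SE 0.25, adjusted p = 7.17e-06) in iLuc, 1.03 (SE 0.24, adjusted p = 0.004398) in WT-EF and -0.43 (SE 0.25, adjusted p = 0.337) in DAF. Its WT-EF call was lost without replicate 2 of every condition (adjusted p = 0.104).

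*SIX4*, a partner of EYA proteins in muscle and sensory organs, had 22.9, 20.4 and 18.2 CPM in iLuc and 55.9, 66.2 and 50.7 in iEF. It had 16.2, 14.3 and 17.2 CPM in WT-EF, 40.6, 42.8 and 47.3 in Δ22 and 30.2, 29.1 and 31.96 in DAF. The conditions fell into the order WT-EF, iLuc, DAF, Δ22 and iEF from low to high with no overlap between any of them. In log2 terms the difference from iEF was -1.49 (SE 0.12, adjusted p = 2.26e-07) in iLuc, -1.86 (SE 0.13, adjusted p = 1.54e-07) in WT-EF, -0.40 (SE 0.12, adjusted p = 0.125) in Δ22 and -0.92 (SE 0.12, adjusted p = 0.000271) in DAF. *CUX2*, a CUT-class gene of upper-layer cortical neurons, had 3.76, 3.65 and 7.403 CPM in iLuc and 0.289, 0.337 and 0.233 in iEF. It had 6.06, 6.69 and 4.98 CPM in WT-EF, 0.381, 0.756 and 0.429 in Δ22 and 1.09, 3.19 and 2.65 in DAF. WT-EF overlapped iLuc, and DAF lay above every iEF and Δ22 library. *CUX2* was 16.9-fold higher than iEF in iLuc (log2 fold change 4.08, SE 0.40, adjusted p = 1.17e-06), 20.6-fold in WT-EF (adjusted p = 1.61e-06) and 7.698-fold in DAF (adjusted p = 0.000388).

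*CUX1*, its widely expressed relative, had 39.4, 42.2 and 43.9 CPM in iLuc and 43.1, 43.6 and 45.5 in iEF. WT-EF held 39.9, 36.1 and 34.3 CPM, Δ22 44.3, 54.2 and 47.4 and DAF 55.4, 58.2 and 53.2. The DAF libraries lay above and the WT-EF libraries below every iEF library. The changes were small, with a log2 fold change of -0.26 (SE 0.09, adjusted p = 0.0476) in WT-EF and 0.33 (SE 0.09, adjusted p = 0.0315) in DAF. The WT-EF call was lost without 1 library at a time of any iLuc replicate, any iEF replicate, WT-EF replicates 2 and 3, Δ22 replicates 2 and 3 and any DAF replicate (adjusted p from 0.0608 to 0.244), or without replicate 1, 2 or 3 of every condition (adjusted p = 0.0752, 0.194 and 0.446), and under 5 other settings (adjusted p from 0.0535 to 0.292). The DAF call was lost without 1 library at a time of any iEF replicate and any DAF replicate (adjusted p from 0.0591 to 0.113), or without replicate 1 or 2 of every condition (adjusted p = 0.171 and 0.271). The direct difference between WT-EF and DAF was -0.60 (SE 0.09, adjusted p = 0.0002495), called under all 25 alternatives.

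**Figure D4:**
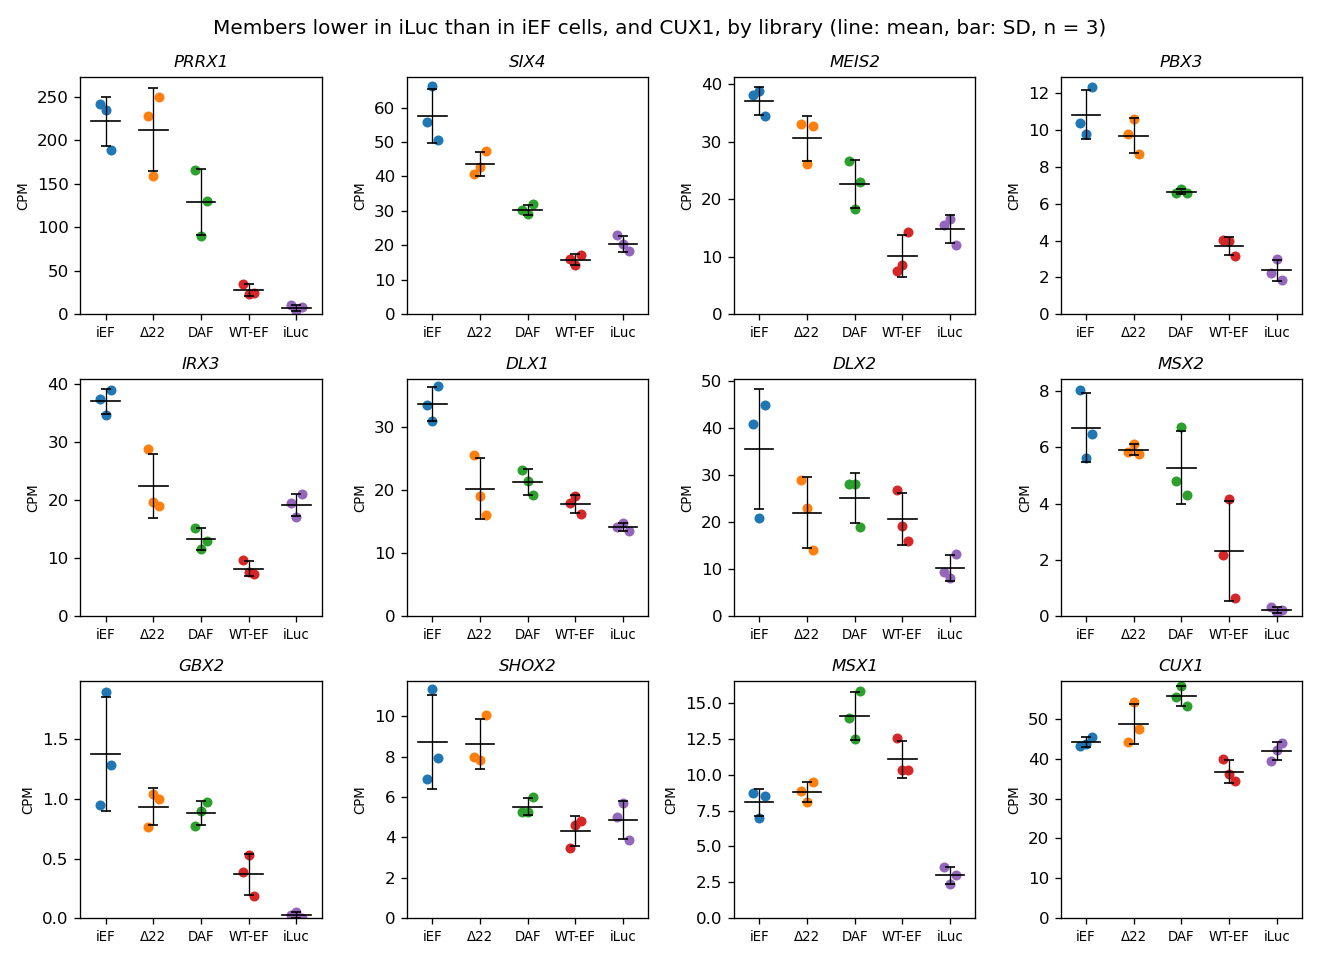
CPM in each library (points) for 11 members lower in iLuc than in iEF, and for CUX1, by condition (x axis), with the mean (line) and SD (bar) of 3 libraries, each y axis starting at 0. For PRRX1, PBX3 and SIX4 the DAF libraries sit between WT-EF and iEF, for IRX3 both WT-EF and DAF fall below iLuc, and for MSX1 the iLuc libraries are lowest while WT-EF and DAF are above iEF.

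The other 18 tested members had smaller changes or lower levels. *ALX1* (log2 fold change 0.99, SE 0.17, adjusted p = 0.000267), *BARX1* (log2 fold change 0.60, SE 0.17, adjusted p = 0.009197), *OTX1* (log2 fold change 2.66, SE 0.72, adjusted p = 0.00794) and *ISL2* (log2 fold change 0.89, SE 0.22, adjusted p = 0.00478) were higher in iLuc than in iEF. The call of *BARX1* was lost without iLuc replicate 1 (adjusted p = 0.0585) or iLuc replicate 3 (adjusted p = 0.0525), or without replicate 1 of every condition (adjusted p = 0.083), that of *OTX1* without replicate 1 or 2 of every condition (adjusted p = 0.0658 and 0.0832), and that of *ISL2* without replicate 1 or 2 of every condition (adjusted p = 0.0552 and 0.111). *MEOX2*, *IRX4* and *SIX2* were lower in iLuc. *MEOX2*, a limb muscle and vascular gene, had 1 count in iLuc and 77 in iEF over the 3 libraries of each, a ratio of 76.8 (95% counting interval 13.4 to 3073, counting error only). *IRX4* (log2 fold change -2.29, SE 0.60, adjusted p = 0.00631) lost its call without iLuc replicate 2 (adjusted p = 0.0514), or without replicate 1 or 2 of every condition (adjusted p = 0.0803 and 0.109). *SIX2* (log2 fold change -1.54, SE 0.58, adjusted p = 0.0446) lost it without 1 library at a time of iLuc replicates 1 and 3, iEF replicates 1 and 3, WT-EF replicate 2, Δ22 replicates 1 and 2 and DAF replicate 1 (adjusted p from 0.0522 to 0.217), or without replicate 1 or 3 of every condition (adjusted p = 0.392 and 0.204), and under 3 other settings (adjusted p from 0.057 to 0.0865). *EN2*, an engrailed gene, was higher in WT-EF than in iEF (log2 fold change 2.17, SE 0.44, adjusted p = 0.00164), a call lost without replicate 2 of every condition (adjusted p = 0.0515). WT-EF against iEF also called *ALX1* higher and *SIX2* and *MEOX2* lower, and DAF against iEF called *MEOX2* lower. The WT-EF calls of *ALX1* and *SIX2* were lost in 2 and 3 of the 25 alternatives. The DAF call of *MEOX2* was lost without replicate 2 of every condition (adjusted p = 0.116).

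*DLX3*, known from skin and bone, was higher in DAF than in iEF, with 0.668, 0.607 and 0.738 CPM and 0.131, 0.101 and 0.175 CPM. Its WT-EF libraries held 0.194, 0.423 and 0.133 CPM and overlapped iEF. Those of Δ22 held 0.293, 0.287 and 0.393 CPM, also above every iEF library (log2 fold change 1.20, SE 0.49, adjusted p = 0.289). The DAF difference (log2 fold change 2.25, SE 0.46, adjusted p = 0.00525) lost its call without replicate 1 or 2 of every condition (adjusted p = 0.0789 and 0.0554). *PAX3*, the neural crest relative of *PAX7*, had 44.6, 44.4 and 48.7 CPM in iLuc and 39.8, 42.1 and 38.1 in iEF. It had 38.1, 36.1 and 33.4 CPM in WT-EF, 36.04, 29.8 and 29.9 in Δ22 and 30.8, 32.9 and 28.5 in DAF. All libraries of these 3 conditions were below every iEF library, WT-EF replicate 1 by a margin under the rounding of these values. The change from iEF was -0.16 (SE 0.10, adjusted p = 0.253) in WT-EF, -0.33 (SE 0.10, adjusted p = 0.115) in Δ22 and -0.38 (SE 0.10, adjusted p = 0.01897) in DAF on the log2 scale, and the DAF call was lost without 1 library at a time of any iEF replicate and any DAF replicate (adjusted p from 0.055 to 0.119), or without replicate 1, 2 or 3 of every condition (adjusted p = 0.162, 0.135 and 0.0876). *IRX5* was lower in WT-EF (log2 fold change -0.38, SE 0.11, adjusted p = 0.01898) and in DAF (log2 fold change -0.55, SE 0.11, adjusted p = 0.00552) than in iEF. Its WT-EF call was lost without iEF replicate 3 (adjusted p = 0.1) or WT-EF replicate 1 (adjusted p = 0.0948), or without replicate 1, 2 or 3 of every condition (adjusted p = 0.146, 0.109 and 0.152), and with no filter on low counts (adjusted p = 0.0991) and in a fit of only the 6 libraries compared (adjusted p = 0.202). Its DAF call was lost without replicate 1, 2 or 3 of every condition (adjusted p = 0.0901, 0.0731 and 0.0712). *NKX2-5*, the heart regulator, stayed between 5.66 and 8.45 CPM over the 15 libraries and was not called in any of the 7 comparisons, and neither were *EN1*, *LHX2*, *LHX9* and *MEIS3*. The 7 members not tested, *DLX4*, *EMX2*, *EVX1*, *IRX1*, *IRX2*, *IRX6* and *LMX1B*, had at most 0.196 CPM in any library, and *IRX1* had no count in any of the 15.

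The direct contrast of WT-EF with DAF asks what the tyrosines of the N-terminal repeats of the EWS domain add. WT-EF was higher than DAF for 16 of the 48 members and lower for 10, where 12.4% of all genes tested were higher and 16.1% lower, and 20 of these calls held in all 25 alternatives. The median difference was 0.20 on the log2 scale over the members and -0.01 over all genes. The higher genes included *EVX2* (log2 fold change 2.16, SE 0.37, adjusted p = 0.000498), *DBX2* (log2 fold change 2.08, SE 0.34, adjusted p = 0.000381), *DLX6* (log2 fold change 1.91, SE 0.31, adjusted p = 0.000293), *ISL1* (log2 fold change 1.65, SE 0.20, adjusted p = 3.61e-05), *DLX5* (log2 fold change 1.63, SE 0.23, adjusted p = 0.000124) and *BARHL2* (log2 fold change 1.54, SE 0.23, adjusted p = 0.000152). All 3 POU genes were higher in WT-EF, *POU3F2* by 1.46, *POU4F2* by 1.46 and *POU4F1* by 1.09 (adjusted p = 0.0004404, 0.00645 and 0.000132). Further down in size came *OTX2* (1.36, SE 0.17, adjusted p = 3.73e-05), *NKX2-2* (1.35, SE 0.25, adjusted p = 0.000994), *ALX4* (1.34, SE 0.17, adjusted p = 4.14e-05) and *MEIS1* (1.12, SE 0.21, adjusted p = 0.000946). *CUX2* differed by 1.42 (SE 0.32, adjusted p = 0.00354), a call lost without replicate 1 of every condition (adjusted p = 0.0896).

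On the lower side, *PRRX1* stood out with -2.20 (SE 0.20, adjusted p = 4.48e-06). *MEIS2* (-1.16, SE 0.21, adjusted p = 0.000749), *SIX4* (-0.93, SE 0.12, adjusted p = 6.64e-05), *PBX3* (-0.84, SE 0.17, adjusted p = 0.001602) and *IRX3* (-0.70, SE 0.13, adjusted p = 0.00105) were also lower in WT-EF than in DAF, as was *HHEX*, a gene of blood and endoderm (-0.95, SE 0.23, adjusted p = 0.00575). *HHEX* had 8.28, 8.01 and 7.91 CPM in WT-EF and 13.4, 13.0 and 21.6 in DAF. It had 10.9, 14.3 and 23.9 CPM in Δ22 and 8.64, 9.04 and 10.6 in iEF. Every library of DAF and of Δ22 lay above every iEF library, though neither condition was called against iEF. *MSX2* (-1.26, SE 0.39, adjusted p = 0.0244) lost its call without 1 library at a time of WT-EF replicates 1 and 3 and DAF replicates 2 and 3 (adjusted p from 0.0595 to 0.0975), or without replicate 1 or 3 of every condition (adjusted p = 0.119 and 0.05), and with no replicate block (adjusted p = 0.0553). *GBX2* (-1.28, SE 0.36, adjusted p = 0.0138) lost it without WT-EF replicate 3 (adjusted p = 0.0746) or DAF replicate 3 (adjusted p = 0.0719), or without replicate 1, 2 or 3 of every condition (adjusted p = 0.0624, 0.0517 and 0.133). *DLX3* (-1.41, SE 0.41, adjusted p = 0.0186) lost it without 1 library at a time of WT-EF replicates 1 and 3 and DAF replicates 1 and 3 (adjusted p from 0.0639 to 0.123), or without replicate 1 or 3 of every condition (adjusted p = 0.151 and 0.18). On the higher side, *EN2* (1.49, SE 0.41, adjusted p = 0.0139) lost its call without DAF replicate 1 (adjusted p = 0.0599) or DAF replicate 2 (adjusted p = 0.0756), or without replicate 1 or 2 of every condition (adjusted p = 0.116 and 0.134), and *ISL2* (0.68, SE 0.23, adjusted p = 0.0404) without 1 library at a time of iEF replicate 1, WT-EF replicates 2 and 3, any Δ22 replicate and any DAF replicate (adjusted p from 0.0502 to 0.133), or without replicate 1, 2 or 3 of every condition (adjusted p = 0.108, 0.252 and 0.2), and under 4 other settings (adjusted p from 0.0568 to 0.136). For *PAX7* the difference between WT-EF and DAF was 0.25 (SE 0.31, adjusted p = 0.628), for *BARX2* 0.37 (SE 0.20, adjusted p = 0.191) and for *MSX1* -0.35 (SE 0.13, adjusted p = 0.0523), none past the threshold, which does not show that the constructs acted alike on them.

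**Figure D5:**
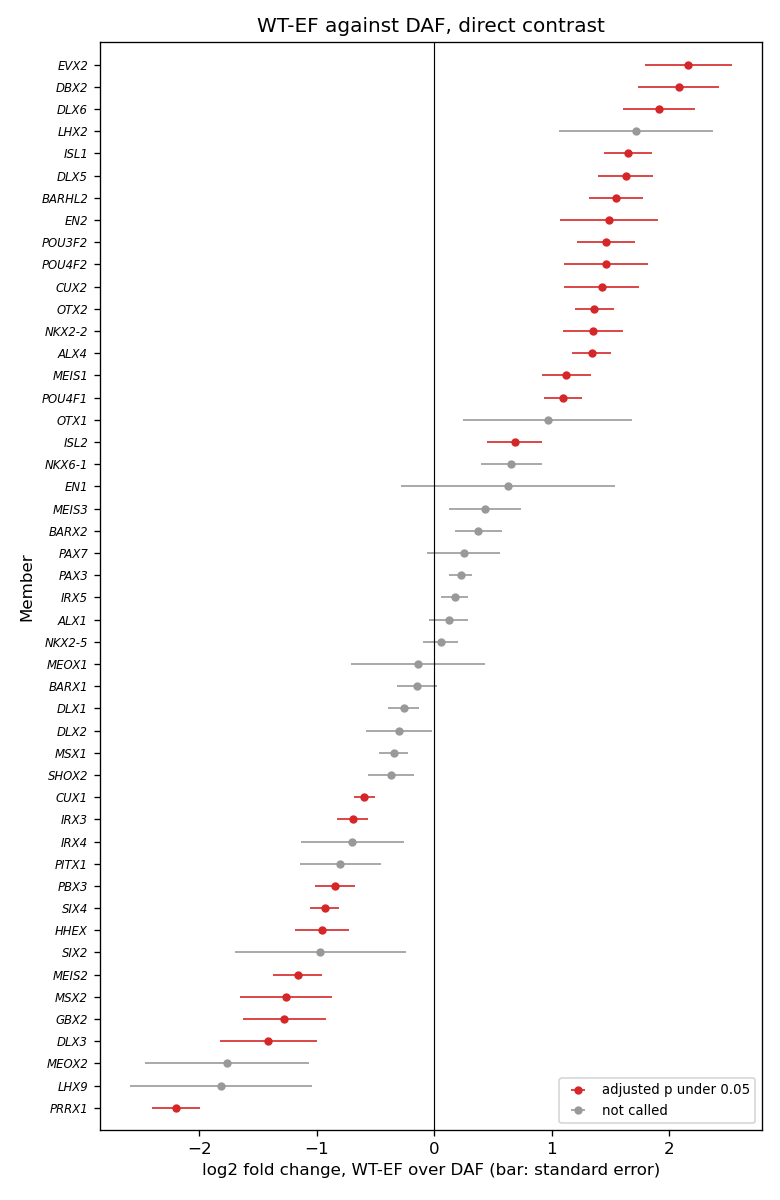
Log2 fold change of WT-EF over DAF for the 48 tested members (rows, sorted), with the standard error as a bar, 3 libraries per condition. Red marks an adjusted p under 0.05 (16 higher, 10 lower) and grey the rest. EVX2 and DBX2 lie at the top above 2, PRRX1 at the bottom below -2, and PAX7 near 0.

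DAF against Δ22, the contrast that sets the mutated EWS domain against its near absence, gave 5 higher and 1 lower of 48 members, where 0.948% of all genes were higher and 0.379% lower. The higher genes were *CUX2* (2.09, SE 0.38, adjusted p = 0.0113), *PAX7* (1.58, SE 0.33, adjusted p = 0.0301), *ALX4* (1.31, SE 0.17, adjusted p = 0.00112), *BARHL2* (1.21, SE 0.24, adjusted p = 0.0208) and *MSX1* (0.68, SE 0.13, adjusted p = 0.0152), and the lower gene was *IRX3* (-0.75, SE 0.13, adjusted p = 0.00892). In each of the 6 the libraries of DAF and Δ22 did not overlap. The 6 were picked by this same contrast, so the lack of overlap is no separate support. None of the 6 calls held in all 25 alternatives. *ALX4* lost its call without replicate 2 of every condition (adjusted p = 0.0699). *CUX2* lost it without 1 library at a time of Δ22 replicates 1 and 3 and DAF replicates 2 and 3 (adjusted p from 0.0621 to 0.0971), or without replicate 2 of every condition (adjusted p = 0.148). The call of *PAX7* did not hold without 1 library at a time of any Δ22 replicate and DAF replicates 2 and 3 (adjusted p from 0.0545 to 0.204), or without replicate 2 of every condition (adjusted p = 0.25), and with no replicate block (adjusted p = 0.0529). That of *BARHL2* was lost without 1 library at a time of any Δ22 replicate and DAF replicates 2 and 3 (adjusted p from 0.0513 to 0.137), or without replicate 1 or 2 of every condition (adjusted p = 0.194 and 0.245), and with no replicate block (adjusted p = 0.0627). *MSX1* was no longer called without 1 library at a time of Δ22 replicates 1 and 3 and DAF replicates 2 and 3 (adjusted p from 0.057 to 0.138), or without replicate 1 or 2 of every condition (adjusted p = 0.21 and 0.247), and with no replicate block (adjusted p = 0.0809). For *IRX3* the call ended without Δ22 replicate 1 (adjusted p = 0.0687), DAF replicate 2 (adjusted p = 0.096) or DAF replicate 3 (adjusted p = 0.0567), or without replicate 1 or 2 of every condition (adjusted p = 0.143 and 0.244), and with no replicate block (adjusted p = 0.0546). The count of higher members was 1 without Δ22 replicate 1, Δ22 replicate 3, DAF replicate 2 or DAF replicate 3. It was 0 without replicate 2 of every condition.

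WT-EF against iLuc compares the rescue with cells that kept endo-EF. WT-EF was higher for 10 of 48 members and lower for 12, beside 10.7% and 9.03% of all genes, and 9 of these calls held in all 25 alternatives. Lower in WT-EF were *OTX2* (-1.21, SE 0.16, adjusted p = 0.000166) and *POU4F1* (-1.28, SE 0.15, adjusted p = 6.4e-05), along with *BARX1* (-1.07, SE 0.17, adjusted p = 0.000533), *IRX3* and *MEOX1*. *MEIS1* (-1.06, SE 0.21, adjusted p = 0.00231) lost its call without replicate 1 of every condition (adjusted p = 0.101), and *NKX2-2* (-1.14, SE 0.23, adjusted p = 0.00277) without replicate 2 of every condition (adjusted p = 0.0813). Higher in WT-EF under every alternative were *GBX2*, *MSX1*, *MSX2* and *PRRX1*, each of them lower in iLuc than in iEF. The count of higher members was 6 without iLuc replicate 1, iLuc replicate 2 or WT-EF replicate 2. It was 5 without replicate 1 or 2 of every condition. *BARHL2* (0.08, SE 0.22, adjusted p = 0.864), *ISL1* (0.06, SE 0.19, adjusted p = 0.891), *CUX2* (0.29, SE 0.31, adjusted p = 0.585) and *ALX4* (0.35, SE 0.16, adjusted p = 0.161) did not pass the threshold.

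A second list of 114 homeobox genes outside the HOX clusters that are not members was read for comparison, of which 111 were matched and 69 tested. Of these, 21 were higher (30.4%) and 15 lower (21.7%) in iLuc than in iEF, beside 19.5% and 22.1% of all genes tested. In WT-EF 18 were higher (26.1%) and 12 lower (17.4%), beside 12.9% and 17.0%. In Δ22 0 were higher and 1 lower (1.45%), beside 0.472% and 0.83%. In DAF 6 were higher (8.7%) and 5 lower (7.25%), beside 5.0% and 6.19%. The shares lowered in iLuc and WT-EF were thus near those of all genes. The Δ22 counts at an unadjusted p under 0.05 were 9 higher and 4 lower, and the share of all genes at that level is not given here. Among those averaging at least 50 counts, *POU1F1*, a pituitary gene (5.54, SE 0.45, adjusted p = 1.95e-07), and *UNCX* (5.40, SE 0.51, adjusted p = 8.52e-07) were higher in iLuc, and *POU2F2* (-2.55, SE 0.50, adjusted p = 0.000786) was lower.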

How the data were processed

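The authors sequenced paired-end libraries of A673 cells, aligned the reads to hg19 with STAR (version 2.5.1b in the submitters' processing notes) and counted them per Ensembl gene with *htseq-count* in intersection-strict mode. The strand setting is not given in the sources used here. The counts they deposited are whole numbers with no normalization, and these were used. Tables of batch-adjusted counts and of the authors' own comparisons (fold changes and adjusted p-values) were not used, nor were 3 columns of the count table that match no sample. Total counts ran from 28659475 to 41859880 per library. Libraries of a condition differed by more than counting noise (chi-square per gene from 12.9 to 83.2 over the pairs of replicates).

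In R 4.3.3, edgeR 4.0.16 was run on genes averaging at least 1 count per library (28793), with TMM scaling and 1 quasi-likelihood model of all 15 libraries with terms for the condition and the replicate set. The replicate block follows the authors' adjustment of each replicate set. Benjamini-Hochberg adjustment was applied over all genes, separately in the 7 comparisons. Scripts were tested on simulated data. Alternatives used DESeq2 1.42.0, ComBat-seq (sva 3.50.0), other filters, no block, fewer libraries and 18 fits that left libraries out. Conditions and replicate numbers came from the sample labels.

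The members and gene lists were chosen with earlier results of these data known. All 55 members were accounted for, and values in every library were given for the 30 that passed the threshold with an absolute log2 fold change over 1 against iEF and averaged at least 1 CPM in some condition. *CUX1*, *DLX3*, *HHEX* and *PAX3* were given in more detail after their values were seen. Other homeobox genes were named if among the 3 largest increases or decreases in iLuc with at least 50 counts on average. Some of these are not reported here. At counts of 3 or fewer a ratio with its exact counting interval was given.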

Additional observations from a re-analysis of the deposited data

Results flagged for a closer look

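*MSX1* is listed here because its change from iEF differed between endo-EF and WT-EF. The log2 fold change was -1.44 (SE 0.14) in iLuc, where all 3 libraries lay below iEF, and 0.45 (SE 0.13) in WT-EF, where all 3 lay above it. Both use the same iEF libraries, so the difference is WT-EF against iLuc, which was 1.90 (SE 0.14, adjusted p = 9.17e-07 by edgeR's quasi-likelihood test) and held under all 25 alternatives. The WT-EF increase itself was lost without WT-EF replicate 2 (adjusted p = 0.0568), or without replicate 1 or 2 of every condition (adjusted p = 0.129 and 0.154), and in a fit of only the 6 libraries compared (adjusted p = 0.0661).

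*CUX1* is listed because WT-EF and DAF moved it in opposite directions from iEF, by -0.26 (SE 0.09) and 0.33 (SE 0.09) on the log2 scale. The difference, WT-EF against DAF, was -0.60 (SE 0.09, adjusted p = 0.0002495) and held under all 25 alternatives, whereas the separate calls against iEF were lost in 21 of the 25 for WT-EF and in 8 for DAF.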

How the results depend on the processing

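Counts of members kept within 1.5 times of their value in every one of the 25 alternatives for iLuc against iEF, WT-EF against iEF, WT-EF against DAF and the members higher in DAF than in iEF. Over the 7 comparisons, the 30 members described with every library and *CUX1* had 122 calls, of which 84 held in every alternative and none reversed in direction. Members higher in Δ22 than in iEF numbered 2 with DESeq2's Wald test, with ComBat-seq and DESeq2, and with no filter on low counts. Members lower in Δ22 numbered 5 with ComBat-seq and 4 with no filter. DAF against Δ22 gave 9 higher and 6 lower in a fit of only its 6 libraries, and 5 lower with DESeq2's Wald test, 5 with ComBat-seq and 4 with no filter. The shares of all genes called under each alternative are not given here. A count that moves in this section, here or below, is therefore no result about the members. For *FLI1*, WT-EF exceeded iEF past the threshold by 0.31 with the size factors of DESeq2, by 0.31 with its Wald test and by 0.31 with ComBat-seq, and by 0.29 with filterByExpr. The cause was not tested.

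Without the replicate block, Δ22 against iEF gave 1 member lower and DAF against Δ22 gave 2 higher and 0 lower. Deviations of libraries were taken from the mean of their own condition. Same-numbered libraries of different conditions deviated together with a median correlation of 0.185 (30 pairs, 21 over 0.1, 13178 genes). Not every such pair deviated together, and the block follows the study's methods. Differently numbered libraries had a median of -0.0842 (60 pairs), a negative value that the centring largely fixes once same-numbered ones correlate, so it is no separate support.

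Leaving out libraries gave 0 to 1 members higher and 0 to 2 lower in Δ22 against iEF, 2 to 11 lower in DAF against iEF (6 without iEF replicate 2 and 5 without DAF replicate 2), 5 to 12 higher and 6 to 15 lower in WT-EF against iLuc, and 0 to 6 higher and 0 to 3 lower in DAF against Δ22. The log2 fold change of *FLI1* ran from 0.24 to 0.34 in WT-EF (past the threshold in 8 of these 18 fits) and from 1.02 to 1.20 in Δ22. Genes under 1 CPM rest on few reads, so a change in them that missed the threshold may lie below what this depth can show.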

Other observations

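Among homeobox genes that are not members, *POU1F1* had 142, 215 and 139.9 CPM in iLuc and 2.29, 9.31 and 1.5996 in iEF. WT-EF held 19.2, 57.6 and 70.3 CPM and DAF 1.12, 4.41 and 1.84 CPM, the latter overlapping iEF. *UNCX*, a gene of the sclerotome and kidney, had 5.47, 11.1 and 4.597 CPM in iLuc, 0.105, 0.337 and 0.0873 in iEF and 0.415, 1.77 and 1.92 in WT-EF, and was lower in WT-EF than in iLuc (log2 fold change -2.43, SE 0.40, adjusted p = 0.000745, edgeR). *OTX2-AS1*, on the strand opposite *OTX2*, had 1.71, 1.77 and 2.42 CPM in iLuc, 0.0526, 0.169 and 0.0873 in iEF and 0.332, 0.7399 and 1.704 in WT-EF, the same order as *OTX2*, and held 351 counts in all beside 23487.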
